A study of Mus musculus with 14 samples.

Results

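Genes of flow sensing, nitric oxide and endothelin signalling were followed in liver sinusoidal endothelial cells (LSECs), the perforated endothelium of the hepatic capillaries. The set comprised 10 genes, Klf2, Klf4, Map2k5, Mef2c, Nos3, Gucy1b1, Prkg1, Edn1, Ece1 and Ednrb. It was drawn up by name from the textbook pathway, with no measured threshold, but with earlier results of these data known. All 10 were matched to 1 target each among 23930 transcript targets, and all 10 were among the 14168 targets with enough reads for testing. The aged group held 7 libraries of LSECs from female wild-type C57BL/6J mice aged 10 to 11 months. The young group held 7 libraries from female wild-type C57BL/6J mice aged 8 to 10 weeks. No mouse carried a transgene or received an agent according to the labels, and the cells of both groups had passed one sorting gate (dim CD45, high STAB2, high CD146). Each age had 3 libraries in experiment 1 and 4 in experiment 2, and a library is named here by its age, experiment and number, so that aged 2.3 is the aged library 3 of experiment 2. At 10 to 11 months a mouse is mature rather than senescent. Whether each library came from a mouse of its own is not stated, so p-values describe the spread among these libraries, which may be technical in part.

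KLF2 is a zinc finger transcription factor that endothelial cells make under steady laminar flow. In the textbook pathway, flow activates the kinases MEKK3, MEK5 (Map2k5) and ERK5, which act through MEF2 factors on the Klf2 promoter. KLF2 and its relative KLF4 then raise endothelial nitric oxide synthase (Nos3) and thrombomodulin and lower endothelin-1 (Edn1). Nitric oxide is received by soluble guanylate cyclase, of which Gucy1b1 encodes the haem-binding beta subunit, and the cyclic GMP formed activates protein kinase G (Prkg1). Endothelin-1 is released from its precursor by the endothelin converting enzyme ECE1 and acts on 2 receptors. EDNRA sits mainly on contractile cells, and EDNRB is found on endothelium, where it prompts nitric oxide release and clears the peptide. In the liver sinusoid this balance sets the tone of the stellate cells that wrap the capillaries.

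The promoters of Klf2 and Edn1 are shown because KLF2 is the factor at the head of the pathway and Edn1, which it represses, was the gene of the 10 whose level varied most. RefSeq promoter windows (GRCm38.p6, 250 bases before to 50 bases after an annotated start) matched 9 of the 10 genes in 15 windows, and the windows of Klf2 (chr8:72318812-72319111, plus strand) and Edn1 (chr13:42301226-42301525, plus strand) are printed 5′ to 3′. Capitals mark matches on either strand to a KLF motif (CACCC, or GGGTG on the other strand), a MEF2 motif (CTANNNNTA), a GATA motif (AGATAA, or TTATCT on the other strand) or an AP-1 motif (TGANTCA).
Klf2: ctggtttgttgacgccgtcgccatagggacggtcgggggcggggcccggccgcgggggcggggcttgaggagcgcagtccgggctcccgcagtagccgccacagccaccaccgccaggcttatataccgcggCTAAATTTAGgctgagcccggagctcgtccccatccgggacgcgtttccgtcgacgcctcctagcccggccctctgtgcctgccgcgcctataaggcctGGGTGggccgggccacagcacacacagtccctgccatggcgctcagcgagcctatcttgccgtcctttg
Edn1: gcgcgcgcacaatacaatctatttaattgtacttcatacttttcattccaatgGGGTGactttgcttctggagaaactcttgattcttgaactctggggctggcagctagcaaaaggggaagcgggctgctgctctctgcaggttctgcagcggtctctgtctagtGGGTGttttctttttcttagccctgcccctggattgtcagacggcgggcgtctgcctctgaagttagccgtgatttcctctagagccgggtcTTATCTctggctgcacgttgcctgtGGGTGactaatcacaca
In the Klf2 window the MEF2 letters lay at −118 to −109, with the annotated start as position 0, where matches on both strands overlapped by all but 1 base at each end. The KLF letters lay at −19 to −15. In the Edn1 window KLF letters occurred 3 times, at −197 to −193, −84 to −80 and 33 to 37, and the GATA letters once, at 8 to 13. Neither window held the AP-1 letters. Among all 32851 promoter windows, 57.5% held the KLF letters, 21.0% the MEF2 letters, 11.2% the GATA letters and 7.81% the AP-1 letters. These matches describe the letters only and show no binding.

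The values analysed were read counts from an amplicon panel that reads 1 short target per gene, given as CPM, that is counts scaled to the depth of each library. Gene reads per library ranged from 6710403 to 13977361. Levels of different genes cannot be set against each other on this scale, because amplicons differ in efficiency and no length scaling applies. LSEC markers were present throughout. The gate's own markers averaged 1984 ± 164 CPM over aged and 2109 ± 246 CPM over young libraries for Stab2, and 356 ± 109.8 CPM over aged and 519.5 ± 166 CPM over young libraries for Mcam (CD146, SD, n = 7 each; edgeR adjusted p = 0.518). Ptprc (CD45) averaged 34.7 ± 33.2 CPM over aged and 12.1 ± 13.5 CPM over young libraries. Chemosensory receptor targets (olfactory, vomeronasal, taste) held between 1.20 and 3.18% of the reads of experiment 1 libraries. In experiment 2 their share was between 0.146 and 2.92%, and it was highest in aged 2.4 (2.81%) and young 2.2 (2.92%). Aged 1.1 and aged 1.2 were the most alike of 18 pairs within groups (chi-square per degree of freedom 6.75, against 22.6 to 134.6 in the other pairs). They differed by more than counting noise and are counted as 2 libraries, which does not show that they came from separate mice. With their counts summed, 4 targets were called in place of 23 over both experiments, and none of the 10 genes.

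None of the 10 genes differed between aged and young LSECs at an adjusted p under 0.05 (edgeR's quasi-likelihood test with the experiment as a term, Benjamini-Hochberg over 14168 targets). Over all targets 0.162% were called by that rule, 11 higher and 12 lower in aged LSECs. At an unadjusted p under 0.05 stood 2 of the 10 genes (20%), Klf2 and Gucy1b1, both lower in aged LSECs, where 6.77% of all targets did. Because the genes were chosen with earlier results of these data known, these shares are a description and not an independent test. The median log2 fold change of the 10 genes, aged over young, was −0.13, with 8 values below 0 and 2 above (6 below with no TMM scaling), while the median of all targets was −0.00. Within experiment 1 alone 0% of all targets were called and within experiment 2 alone 0.00706%, with none of the 10 genes among them. DESeq2 called 146 targets over both experiments, 86 in experiment 1 and 53 in experiment 2, and limma-voom called 22, 1 and 3. Of the 10 genes DESeq2 called 1, Gucy1b1, over both experiments, and limma-voom called 0. The unadjusted threshold was passed by 1 of the 10 genes in experiment 1, Gucy1b1, where 6.45% of all targets passed it. In experiment 2 it was passed by 1 of the 10, Edn1, where 2.79% of all targets did.

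**Figure D1:**
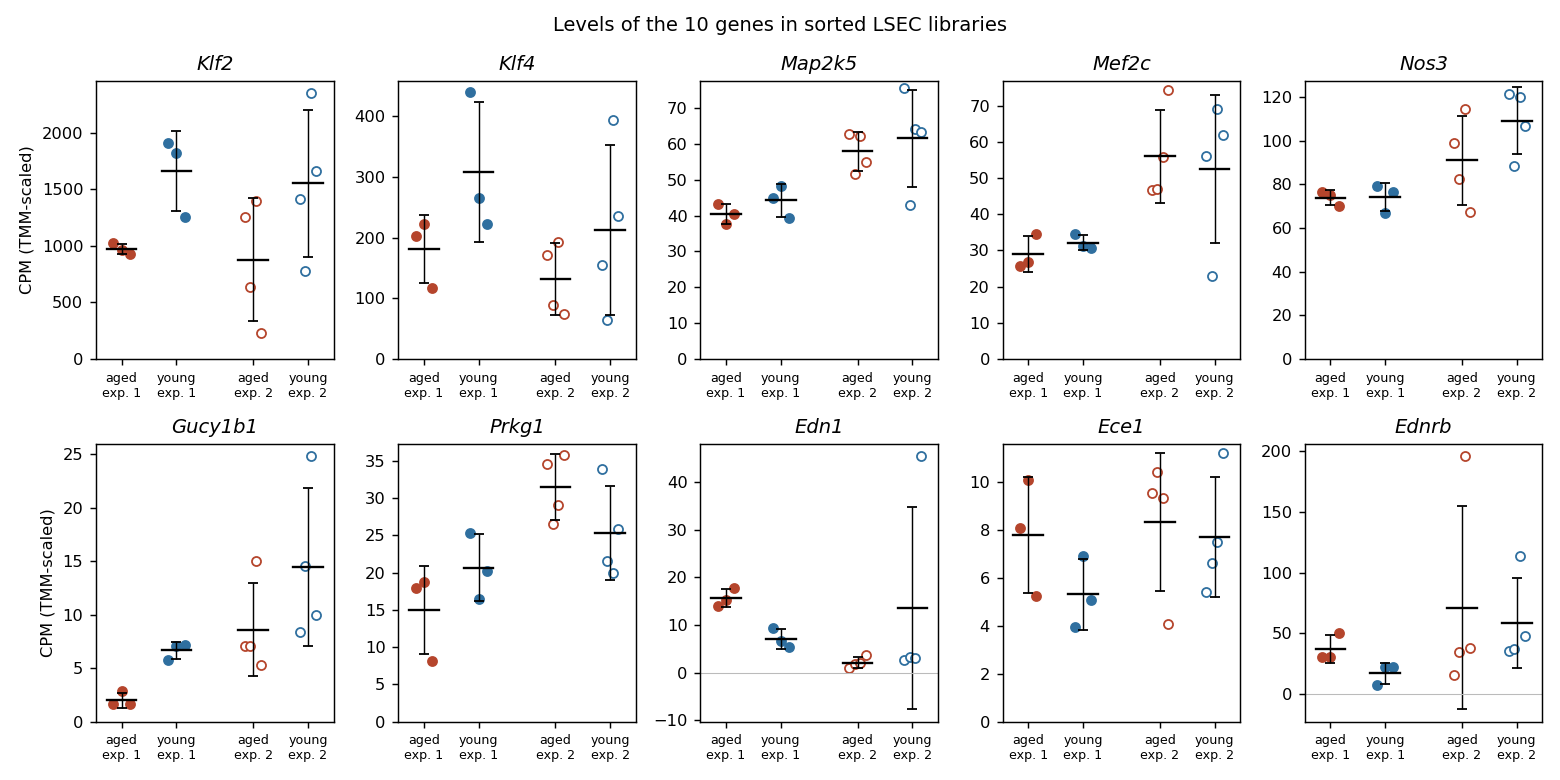
Level of each of the 10 genes in CPM (linear axis, TMM-scaled) in every library, with aged left of young within experiment 1 (filled points) and experiment 2 (open points). Bars give the mean and 1 SD of 3 or 4 libraries. Aged and young points of experiment 1 are fully apart for Klf2, Gucy1b1, Edn1 and Ednrb, while all 10 genes overlap in experiment 2.

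Klf2 (NM_008452.2) had lower mean levels in aged than in young LSECs in both experiments, without a call. In experiment 1 its levels were 1022, 964 and 931 CPM in aged 1.1 to 1.3, against 1913, 1821 and 1257 CPM in young 1.1 to 1.3. In experiment 2 they were 1254, 636, 1393 and 230.4 CPM in aged 2.1 to 2.4, against 1418, 782, 2352 and 1662 CPM in young 2.1 to 2.4. The ages did not overlap in experiment 1 and overlapped in experiment 2, where aged 2.4 was lowest and young 2.2 was the lowest of the young. Over both experiments Klf2 averaged 919 ± 388 CPM over aged and 1601 ± 506 CPM over young libraries (SD, n = 7 each), 1.74-fold lower in aged LSECs (95% interval 1.07 to 2.85). The log2 fold change was −0.80 (SE 0.330, edgeR adjusted p = 0.676), with values of −0.77 for experiment 1 and −0.82 for experiment 2. All 7 aged libraries lay below the young mean of their experiment, and an exact two-sided permutation of labels within experiments gave p = 0.0229, 1 of 10 such tests, where the smallest possible is 0.00143.

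Klf4 (NM_010637.3), the closest relative of Klf2 in endothelium, had a similar size of difference and did not pass either threshold. Its levels in experiment 1 were 203, 223 and 117 CPM in aged libraries, against 439, 265 and 222 CPM in young libraries. Experiment 2 gave 171, 89.8, 193 and 73.8 CPM in aged libraries, against 156, 64.7, 394 and 236 CPM in young libraries. The ages overlapped in both experiments, by 1 aged library just above the lowest young one in experiment 1. Klf4 averaged 153 ± 59.0 CPM over aged and 254 ± 129.8 CPM over young libraries (SD, n = 7 each), a log2 fold change of −0.72 (SE 0.346, edgeR adjusted p = 0.750, exact permutation p = 0.151). Klf6, another KLF factor of endothelium that is not one of the 10 genes, averaged 142 ± 53.2 CPM over aged and 212 ± 95.4 CPM over young libraries (log2 fold change −0.62, edgeR adjusted p = 0.720). All 3 KLF factors examined were therefore below 0 on the log2 scale, also with no TMM scaling and under DESeq2, and none was called.

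Transcripts of the early response, which cells make within minutes of a stimulus or of dissociation, also had lower mean levels in aged LSECs. Of 15 listed early response genes 14 had a log2 fold change below 0, with a median of −0.87. An unadjusted p under 0.05 was reached by 8 of the 15, where 6.77% of all targets reached it (smallest adjusted p of the 15 genes = 0.451, edgeR). Among the early response genes Fos averaged 1041 ± 495 CPM over aged and 2536 ± 1537 CPM over young libraries, and Atf3 averaged 43.8 ± 32.1 CPM over aged and 241 ± 215 CPM over young libraries. Their summed level ranged from 3464 to 10844 CPM over aged libraries (median 8795) and from 2902 to 27568 CPM over young libraries (median 15271), and no early response gene was at 0 in any library. With the mean early response level as a term, the log2 fold change of Klf2 was −0.42 (SE 0.311) and that of Klf4 −0.02 (SE 0.211), while that of Gucy1b1 was −1.02 (SE 0.355). What part the early response has in the KLF values was not tested beyond this. Young 2.2, which had the lowest early response level of all libraries, also had the lowest Klf4 and the lowest Klf2 of the young libraries.

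**Figure D2:**
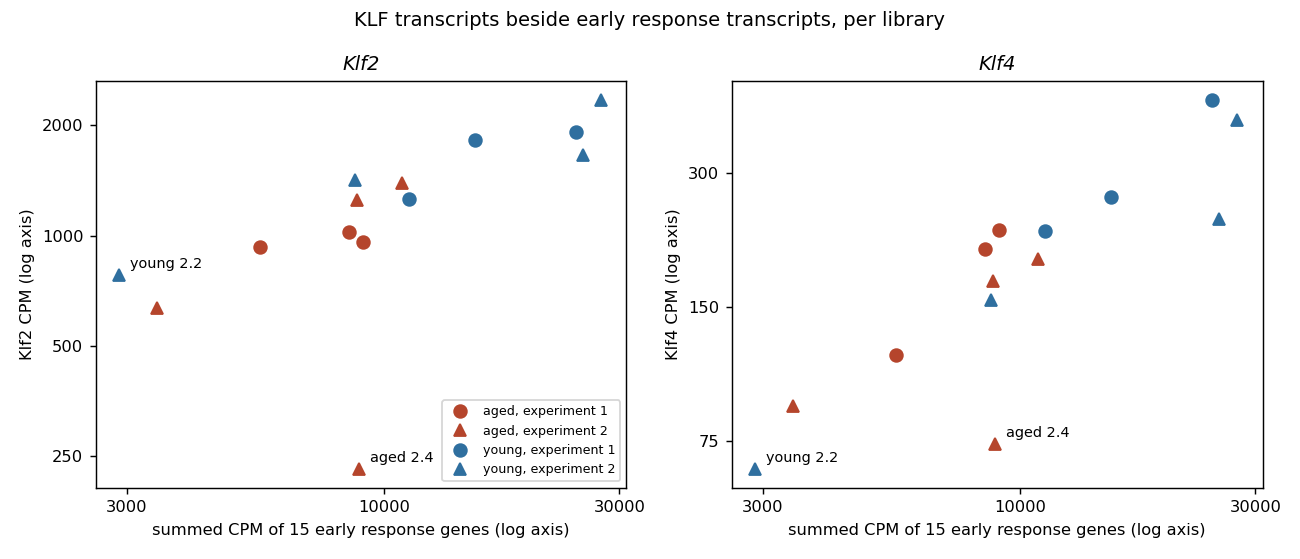
Klf2 (left) and Klf4 (right) in CPM against the summed CPM of 15 early response genes, both on log axes, with 1 point per library coloured by age and shaped by experiment. Libraries with higher early response levels are mostly those with higher Klf2 and Klf4, and aged 2.4 lies below the other points for Klf2 at 230.4 CPM.

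Aged 2.4 and young 2.2 also carried the high receptor reads of experiment 2. With the share of receptor reads as a term, Klf2 was called, at a log2 fold change of −0.97 (SE 0.171, edgeR adjusted p = 0.0189). Without those 2 libraries it was −0.75 (SE 0.196, adjusted p = 0.142). Klf4 was at −0.73 and −0.78 in these fits (adjusted p = 0.200 and 0.244). Over the runs that left out 1 library, Klf2 ranged from −0.97 to −0.63 and Klf4 from −0.89 to −0.47 on the log2 scale, with no call.

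The deviations of Klf2 and Klf4 from their age and experiment means ran together over the 14 libraries (Pearson's r = 0.788, and 0.840 over the 12 libraries without young 2.2 and aged 2.4). For Klf2 and Nos3 the value was 0.850 over 14 libraries and 0.534 over 12. Among 10740 genes of at least 5 CPM, those most like Klf2 by this measure were Sppl2b (r = 0.971), Clec16a (0.967), Trrap (0.962), Polr1b (0.947) and Mroh1 (0.946). Over the 12 libraries their values were 0.726 to 0.881. The points share libraries, scaling and the range of receptor reads, and these correlations are given as a description.

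Upstream of Klf2, the MEK5 gene Map2k5 (NM_011840.2) had the smallest spread between libraries of the 10 genes (residual SD 0.208 on the log2 scale). It lay between 37.6 and 43.2 CPM in aged and between 39.4 and 48.3 CPM in young libraries of experiment 1. In experiment 2 it lay between 51.7 and 62.8 CPM in aged and between 43.1 and 75.6 CPM in young libraries. The ages overlapped in both, and most libraries of experiment 2 lay above those of experiment 1. Map2k5 averaged 50.4 ± 10.2 CPM over aged and 54.1 ± 13.6 CPM over young libraries (SD, n = 7 each), a log2 fold change of −0.11 (SE 0.115, 95% interval of the fold 0.783 to 1.10, exact permutation p = 0.440). Mef2c (NM_001170537.1), a transcription factor of the MEF2 family, averaged 44.4 ± 17.3 CPM over aged and 43.8 ± 18.1 CPM over young libraries. Its log2 fold change was −0.01 (SE 0.204, 95% interval of the fold 0.733 to 1.35), and its sign depended on the scaling. In experiment 1 its levels lay between 25.7 and 34.6 CPM in aged and between 30.7 and 34.6 CPM in young libraries. In experiment 2 they spread from 46.8 to 74.3 CPM in aged and from 23.1 to 69.0 CPM in young libraries, with young 2.2 the lowest.

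The wider list of 16 genes above Klf2, of sensors, kinases, MEF2 factors and their regulators, had a median log2 fold change of −0.11 and no call. It mixes genes that activate the pathway with genes that restrain it, such as Krit1 and Hdac5. A sign shared by its members is therefore not a direction of the pathway. All 16 values were below 0, and with no TMM scaling 11 were below and 5 above. The members with the smallest p were Mef2d at −0.38, Map3k2 at −0.18, the junction cadherin gene Cdh5 at −0.15 and Krit1 at −0.15, each with an edgeR adjusted p of 0.999. The channel Piezo1, which opens under flow, averaged 118 ± 30.8 CPM over aged and 124 ± 23.2 CPM over young libraries.

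Nos3 (NM_008713.4), which makes nitric oxide in endothelium, was nearly level between the ages. In experiment 1 its levels were 76.4, 75.2 and 70.2 CPM in aged libraries, against 79.3, 67.0 and 76.5 CPM in young libraries. In experiment 2 they were 99.1, 82.5, 115 and 67.4 CPM in aged libraries, against 121, 88.2, 120.0 and 107 CPM in young libraries. The ages overlapped in both experiments, and the lowest aged and the lowest young library of experiment 2 were again aged 2.4 and young 2.2. Nos3 averaged 83.6 ± 17.1 CPM over aged and 94.2 ± 21.8 CPM over young libraries (SD, n = 7 each), 1.11-fold lower in aged LSECs, with a 95% interval from 1.33-fold lower to 1.07-fold higher. Its log2 fold change was −0.15 (SE 0.119, edgeR adjusted p = 0.999, exact permutation p = 0.210), with values of −0.01 for experiment 1 and −0.26 for experiment 2. The residual SD of Nos3 on the log2 scale was 0.228, where the median over targets of at least 5 CPM was 0.360, so the interval around Nos3 was narrower than that of Klf2. The genes most like Nos3 in their deviations were Prpf40b (r = 0.921), Inhbb (0.921), Gphn (0.917), Ccm2l (0.908) and Aldh5a1 (0.904), and over the 12 libraries without young 2.2 and aged 2.4 these values were 0.723 to 0.840.

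Of 17 tested genes of nitric oxide synthesis, which include its cofactor enzymes, inhibitors and arginine supply, 6 were above 0 and 11 below, with a median of −0.06 and no call, and with no TMM scaling 8 were above 0 and 9 below. Among the members with the smallest p were Cav1 (−0.27), whose product caveolin-1 binds and restrains the synthase, Nostrin (−0.31), which draws it from the membrane, and Nos2 (0.85), the inducible synthase. Their edgeR adjusted p-values were 0.862, 0.872 and 0.924. Cav1 averaged 107 ± 12.9 CPM over aged and 129 ± 30.6 CPM over young libraries, and Nos2 averaged 1.39 ± 0.468 CPM over aged and 0.746 ± 0.497 CPM over young libraries. Of the 10 tested targets that KLF2 or KLF4 raises in endothelium, 4 were above 0 and 6 below with a median of −0.10 and no call, and with no TMM scaling 5 were above and 5 below. Those with the smallest p were thrombomodulin (Thbd, 579 ± 255 CPM over aged and 769 ± 309.9 CPM over young libraries, log2 fold change −0.40), Tek (−0.23), Nos3 and Ednrb.

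**Figure D3:**
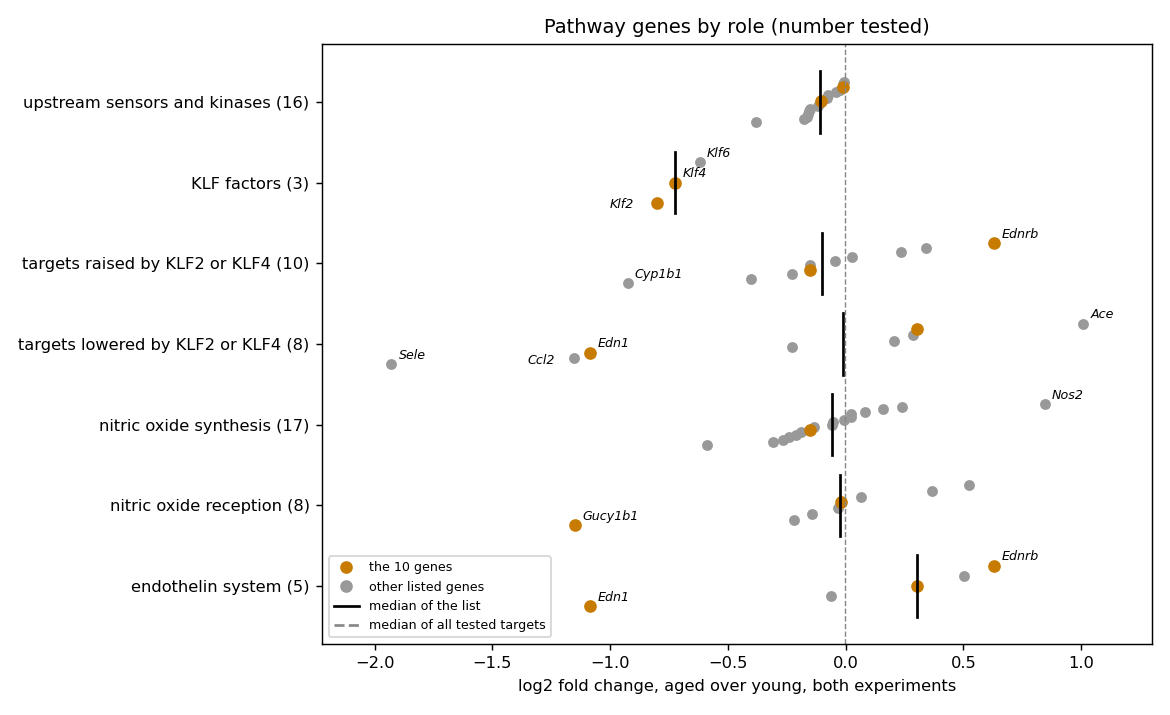
Log2 fold change of each tested gene, aged over young, in 7 lists arranged by role in the pathway. Orange points are the 10 genes, grey points the other listed genes, black lines the median of each list, and the dashed line the median of all tested targets. The KLF factors have a median of −0.72, and the other medians lie between −0.11 and 0.30.

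Gucy1b1 (NM_001161796.1), the beta subunit that senses nitric oxide, had the smallest p of the 10 genes, rank 125 among 14168 targets. Its levels in experiment 1 were 1.63, 2.84 and 1.62 CPM in aged libraries, against 5.79, 7.07 and 7.18 CPM in young libraries. Experiment 2 gave 7.04, 7.04, 15.03 and 5.32 CPM in aged libraries, against 8.42, 14.6, 24.8 and 10.0 CPM in young libraries. All aged libraries of experiment 1 lay below all young ones, whereas in experiment 2 only aged 2.3 reached into the young range. These levels rest on 20 to 189 reads per library. Gucy1b1 averaged 5.79 ± 4.69 CPM over aged and 11.1 ± 6.69 CPM over young libraries (SD, n = 7 each), 2.22-fold lower in aged LSECs (95% interval 1.34 to 3.67). The log2 fold change was −1.15 (SE 0.337, edgeR adjusted p = 0.460), with 6 of 7 aged libraries below the young mean of their experiment and an exact permutation p of 0.00857. It was −1.72 (SE 0.5004, adjusted p = 0.752) in experiment 1 and −0.74 (SE 0.419, adjusted p = 0.9999) in experiment 2. The difference between the experiments was 0.97 on the log2 scale (SE 0.642, edgeR adjusted p = 0.9998). DESeq2 called Gucy1b1 (log2 fold change −1.16, adjusted p = 0.04996), and leaving out 1 library gave −1.41 to −0.99 with no call by edgeR. Over the other alternatives its adjusted p ranged from 0.04996 to 0.999992, where that of Klf2 ranged from 0.0189 to 0.999992. For experiment 2 alone the value was −0.35 without young 2.3 and −1.16 without aged 2.3.

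Soluble guanylate cyclase is also abundant in stellate cells, and stellate and mural markers differed between libraries. Of 9 tested stellate and mural markers 8 were above 0, with a median log2 fold change of 0.25, and medians of −0.72 in experiment 1 and 1.01 in experiment 2. Their summed level ranged from 189.5 to 819 CPM in aged and from 190.4 to 559 CPM in young libraries, and at most 1 of 11 matched markers was at 0 in a library. With the mean level of these markers as a term, the log2 fold change of Gucy1b1 was −1.38 (SE 0.265, edgeR adjusted p = 0.0902). In a bulk library fewer cells of a type and less RNA per cell cannot be told apart. The alpha subunit gene Gucy1a1 had 6 to 198 reads per library and averaged 4.99 ± 5.28 CPM over aged and 4.56 ± 4.39 CPM over young libraries (log2 fold change −0.22, SE 0.558).

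Prkg1 (NM_001013833.3), for the kinase that cyclic GMP activates, had fold changes of opposite sign in the 2 experiments. Its levels in experiment 1 were 18.0, 18.8 and 8.17 CPM in aged libraries, against 25.4, 16.4 and 20.2 CPM in young libraries. In experiment 2 they were 34.6, 26.5, 29.0 and 35.8 CPM in aged libraries, against 33.9, 21.6, 19.9 and 25.9 CPM in young libraries. The ages overlapped in both. The log2 fold changes were −0.46 (SE 0.331) and 0.31 (SE 0.286), and their difference of 0.78 was not called (SE 0.437, edgeR adjusted p = 0.9998). Over both experiments Prkg1 averaged 24.4 ± 9.97 CPM over aged and 23.3 ± 5.70 CPM over young libraries (SD, n = 7 each; log2 fold change −0.02, 95% interval of the fold 0.699 to 1.39). Of 8 tested genes of nitric oxide reception 3 were above 0 and 5 below, with a median of −0.02, and with no TMM scaling 5 were above. After Gucy1b1, those with the smallest p were the cyclase subunit gene Gucy1a2 (0.53) and the phosphodiesterase genes Pde3a (0.36) and Pde5a (−0.14), each with an edgeR adjusted p of 0.999. Pde2a, a cyclic nucleotide phosphodiesterase, averaged 1549 ± 250 CPM over aged and 1481 ± 237 CPM over young libraries.

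**Figure D4:**
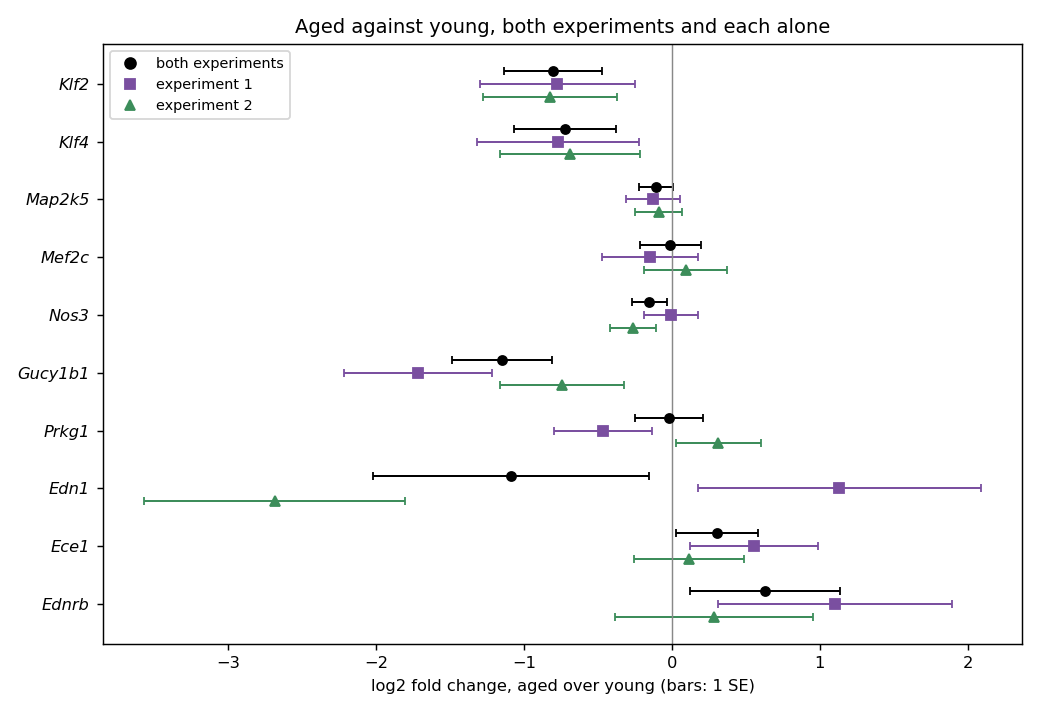
Log2 fold change, aged over young, of each of the 10 genes over both experiments (black circles), in experiment 1 (purple squares) and in experiment 2 (green triangles), with bars of 1 SE. Klf2 and Klf4 have nearly the same value in each experiment, while Edn1 is at 1.13 in experiment 1 and −2.68 in experiment 2.

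Edn1 (NM_010104.4), the vasoconstrictor peptide gene, was the most variable of the 10 genes, with a 50-fold range between its lowest and highest library. In experiment 1 its levels were 13.97, 15.3 and 17.7 CPM in aged libraries, against 9.46, 6.64 and 5.30 CPM in young libraries. The levels of experiment 2 were 0.908, 1.85, 1.99 and 3.65 CPM in aged libraries, against 2.56, 3.31, 3.00 and 45.4 CPM in young libraries. Every aged library of experiment 1 lay above every young one. In experiment 2 the groups overlapped through aged 2.4, and 1 young library, young 2.4, was far above the other 7. The log2 fold change was 1.13 in experiment 1 (SE 0.954, edgeR adjusted p = 0.999) and −2.68 in experiment 2 (SE 0.880, adjusted p = 0.9999). Their difference was −3.82 (SE 1.30, edgeR adjusted p = 0.9998). By the test of that difference 0% of all targets were called and 2.18% had an unadjusted p under 0.05, among them 1 of the 10 genes.

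Without young 2.4 the log2 fold change of Edn1 was −0.49 in experiment 2 (edgeR adjusted p = 0.9998), the difference between experiments was −1.62 (adjusted p = 0.986), and the value over both experiments was 0.28 in place of −1.09 (SE 0.931, adjusted p = 0.999). With young 2.4 Edn1 averaged 7.91 ± 7.37 CPM over aged and 10.8 ± 15.5 CPM over young libraries (SD, n = 7 each; exact permutation p = 0.721). DESeq2 gave no p for Edn1. Young 2.4 also had the highest levels of several genes of activated or large-vessel endothelium, picked here after their values were seen. E-selectin (Sele) was at 55.8 CPM in young 2.4 and between 0.662 and 6.55 CPM in the other 13 libraries. The chemokine gene Ccl2 was at 42.8 CPM there and at most 17.2 CPM elsewhere. Von Willebrand factor (Vwf) was at 328 CPM there and at most 60.0 CPM elsewhere, and P-selectin (Selp) was at 57.5 CPM there and at most 34.5 CPM elsewhere. The 11 matched vessel endothelium markers together ranged from 1257 to 1822 CPM in aged and from 1335 to 2208 CPM in young libraries, with young 2.4 at 2011 CPM and no marker at 0. Of these 11 markers 3 were above 0 and 8 below, with a median of −0.20. Their part in the Edn1 values was not tested. The early response sum of young 2.4 was 25288 CPM, and with the early response term the log2 fold change of Edn1 over both experiments was −0.05 (SE 0.920).

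Ece1 (NM_199307.2), for the enzyme that matures endothelin, averaged 8.097 ± 2.48 CPM over aged and 6.67 ± 2.34 CPM over young libraries (SD, n = 7 each; log2 fold change 0.30, SE 0.277, edgeR adjusted p = 0.999). Aged libraries of experiment 1 held 8.07, 10.1 and 5.26 CPM, against 3.96, 6.90 and 5.07 CPM in young ones. Aged libraries of experiment 2 held 9.53, 10.4, 9.302 and 4.07 CPM, against 5.41, 6.62, 7.50 and 11.2 CPM in young ones. The ages overlapped in both experiments, although 6 of 7 aged libraries lay above the young mean of their experiment.

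Ednrb (NM_001136061.2), the endothelin receptor of endothelium, was higher in every aged than in every young library of experiment 1. Its levels there were 30.3, 30.4 and 49.97 CPM in aged libraries, against 7.26, 22.2 and 22.1 CPM in young libraries. Experiment 2 gave 16.0, 35.0, 195 and 38.2 CPM in aged libraries, against 35.1, 37.5, 114 and 48.1 CPM in young libraries. The ages overlapped in experiment 2, where library 3 of each age stood far above the rest. Ednrb averaged 56.5 ± 62.1 CPM over aged and 40.8 ± 34.7 CPM over young libraries (SD, n = 7 each), a log2 fold change of 0.63 (SE 0.507, edgeR adjusted p = 0.999, exact permutation p = 0.464), with 1.10 for experiment 1 and 0.29 for experiment 2. Without aged 2.3 the value was 0.01 over both experiments and −0.98 in experiment 2. Those same 2 libraries had the highest sums of stellate and mural markers, 819 CPM in aged 2.3 and 559 CPM in young 2.3, against at most 399.7 CPM in the other 12. With these markers as a term the log2 fold change of Ednrb was 0.28 (SE 0.527), and their part in it was otherwise not tested.

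In experiment 1, levels of 2 of the 10 genes were lower in all aged than in all young libraries (Klf2 and Gucy1b1), where 12.2% of all targets were. Those of 2 others were higher (Edn1 and Ednrb), where 6.87% of all targets were. In experiment 2 levels of all 10 genes overlapped, where 0.466% of all targets were lower and 0.903% higher without overlap. The other endothelin genes were near the detection limit or did not differ beyond their spread. Ednra, the receptor of contractile cells, averaged 1.28 ± 1.52 CPM over aged and 0.385 ± 0.529 CPM over young libraries and had too few reads to be tested, like Edn2, Edn3 and Kel. Of the 5 tested endothelin genes 3 were above 0 and 2 below, with a median of 0.30, and the smallest p after the 10 genes was that of Mme (0.50), for the peptidase neprilysin that degrades the peptide (edgeR adjusted p = 0.999).

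Among 8 tested genes that KLF2 or KLF4 lowers in endothelium, 4 were above 0 and 4 below, with a median of −0.01 and no call. Sele had the smallest p (log2 fold change −1.93, SE 0.826, edgeR adjusted p = 0.693), followed by Ccl2 (−1.15, adjusted p = 0.739), the angiotensin converting enzyme Ace (1.01, adjusted p = 0.922) and the adhesion molecule Vcam1 (0.29, adjusted p = 0.999). Sele averaged 2.17 ± 1.33 CPM over aged and 10.7 ± 19.96 CPM over young libraries. Ccl2 averaged 4.95 ± 2.03 CPM over aged and 12.5 ± 14.3 CPM over young libraries, and young 2.4 held the high values of both. Over the whole pathway 63 of 76 listed genes were tested, of which 18 were above 0 and 45 below, with a median of −0.08. None was called, and 4 had an unadjusted p under 0.05, Klf2, Klf6, Gucy1b1 and Sele, each lower in aged LSECs. Over all targets 6.77% had such a p, a share close to that of 4 in 63, and 50.4% had a log2 fold change below 0. The split of the listed genes depended on the scaling. With no TMM scaling 11 genes in place of 16 were below 0 in the list above Klf2, and 9 in place of 11 in nitric oxide synthesis. The median of all targets was then 0.05. Of the 13 listed genes that were not tested, 3 had no matched target and 10 had too few reads.

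Markers of cells other than LSECs mostly had higher mean levels in aged libraries. All 7 tested Kupffer cell markers and all 11 tested leukocyte markers were above 0, with medians of 1.75 and 2.22 and no call. An unadjusted p under 0.05 (edgeR) was reached by all 7 Kupffer cell markers and 6 of the 11 leukocyte markers, where 6.77% of all targets reached it. The leukocyte median was 2.78 in experiment 1, where aged 1.3 had 2553 CPM and the other 2 aged libraries 241 and 290 CPM, and 1.04 in experiment 2. The Kupffer sum ranged from 31.4 to 238 CPM in aged and from 14.7 to 90.8 CPM in young libraries, with at most 2 of 9 markers at 0 in a young library. The leukocyte sum ranged from 104 to 3115 CPM in aged and from 119.7 to 1261 CPM in young libraries, with no marker at 0. With the mean of both marker lists as a term, the log2 fold changes of Klf2, Klf4 and Gucy1b1 were −0.97 (SE 0.487), −0.44 (SE 0.486) and −0.997 (SE 0.473), none called by edgeR. Of 10 LSEC markers 8 were below 0 with a median of −0.10, and their sum ranged from 15847 to 28045 CPM in aged and from 19406 to 29083 CPM in young libraries. At an unadjusted p under 0.05 (edgeR) Mcam (−0.56) and Lyve1 (−0.68) were lower and Fcgr2b (0.58) was higher in aged LSECs, with no call. The 7 tested hepatocyte markers were all above 0, with a median of 0.77, and medians of 2.50 in experiment 1 and −0.12 in experiment 2. In experiment 1 their sum was 423, 479 and 5140 CPM in aged 1.1 to 1.3 and 344 to 766 CPM in young libraries, so only aged 1.3 lay above the young range. In experiment 2 it ranged from 869.8 to 1447 CPM in aged and from 445 to 1844 CPM in young libraries. Their part in the values of the 10 genes was not tested.

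**Figure D5:**
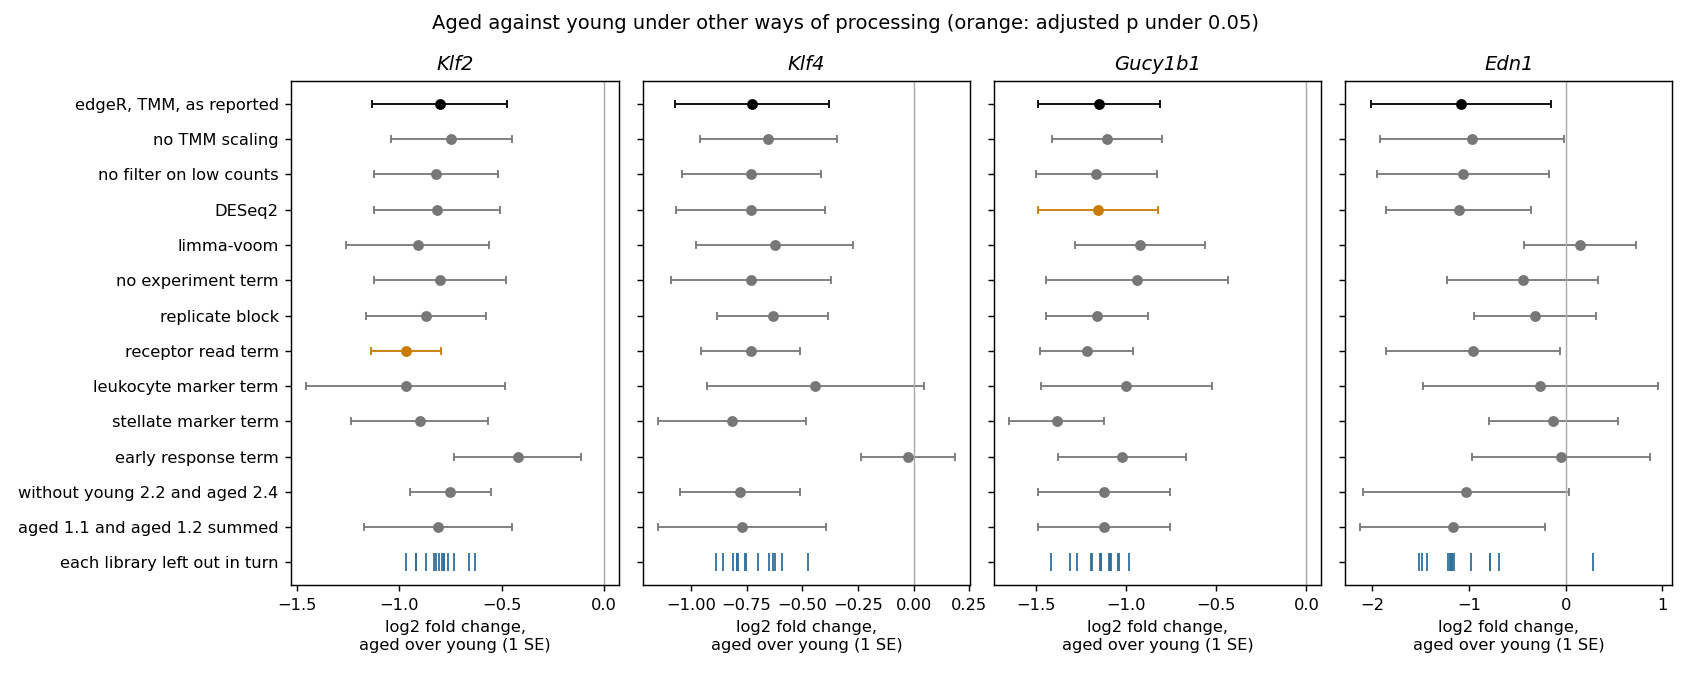
Log2 fold change, aged over young, of Klf2, Klf4, Gucy1b1 and Edn1 (bars: 1 SE) as reported and under 12 other ways of processing, with ticks for the 14 runs that leave out 1 library. Orange marks an adjusted p under 0.05, reached by Klf2 with the receptor read term and by Gucy1b1 under DESeq2. Klf4 lies at −0.02 with the early response term, and Edn1 crosses 0 under limma-voom and without young 2.4.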

How the data were processed

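Messenger RNA of sorted LSECs was measured in 14 libraries with the Ion AmpliSeq mouse transcriptome panel. The deposited values are raw read counts per RefSeq target, 1 file per library, made with tools that included HTSeq 0.6.0 and DESeq2 1.18.1 per the submitters' processing notes. Which aligner, build, strand setting and rule for shared reads applied was not given in the sources used here. The 5 bookkeeping entries (1.24 to 3.04% of reads) were left out. Amplicon reads carry no molecular identifiers, so counting error is the least that applies. Symbols came from RefSeq GRCm38.p6 tables, with 1368 targets unmatched.

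The tests ran in edgeR 4.0.16 under R 4.3.3: filterByExpr, TMM, quasi-likelihood F test with experiment and age, and a model of 4 group means for each experiment alone and for their difference. Calls used a Benjamini-Hochberg adjusted p under 0.05 over 14168 targets. Levels are TMM-scaled CPM, and exact permutations used log2 CPM with a prior count of 2. The alternatives used no TMM, no filter, DESeq2 1.42.0, limma 3.58.1 (voom), other terms and left-out libraries. The edgeR fits were run on simulated counts with known fold changes. Those counts held no difference between experiments and no outlying library, so the run does not probe how the fits handle either. Members and lists were chosen with earlier results of these data known. From each pathway list up to 4 genes with the smallest p are named, and for Klf2 and Nos3 the 5 most correlated genes. For 1 gene so chosen the values are not reported here.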

Additional observations from a re-analysis of the deposited data

Results flagged for a closer look

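For Prkg1 and Edn1, every aged library of one experiment lay on the other side of its experiment's young mean (of log2 CPM) from every aged library of the other experiment. The share of all targets with this pattern was not counted, so how unusual it is cannot be told. The difference of the log2 fold changes, experiment 2 minus experiment 1, was 0.778 for Prkg1 and −3.816 for Edn1. By edgeR's test of the difference neither was called (adjusted p = 0.9998 each). For Edn1 the pattern was lost without young 2.4, where the difference was −1.62. For Prkg1 it was lost without young 1.1 or without young 2.3, where the difference was 0.60 and 0.68, and the lowest difference was 0.48, without aged 1.3.

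Dixon's ratio was taken for each age over its 7 libraries of both experiments and over its 4 libraries of experiment 2, on the log2 CPM and the CPM scale, which is 20 groups of the 10 genes in each case. Chance alone passes the 95% critical value in about 1 in 20 groups if the values of a group follow 1 normal distribution. This need not hold on the CPM scale, or for the groups of 7, which pool 2 experiments. Edn1 in young 2.4 (45.43 CPM) stood apart in experiment 2 on both scales, with ratios of 0.913 on log2 CPM and 0.982 on CPM against a critical value of 0.829, and over 7 libraries on CPM (0.839 against 0.568). Ece1 in aged 2.4 (4.069 CPM) stood apart on log2 CPM in experiment 2 (0.881), and without it the log2 fold change of Ece1 in that experiment was 0.34. On the CPM scale alone, Ednrb stood apart in aged 2.3 (195.5 CPM) with ratios of 0.811 over 7 libraries and 0.876 in experiment 2, and in young 2.3 (113.7 CPM) with 0.617 and 0.835. Gucy1b1 in aged 2.3 (15.03 CPM) did so over 7 libraries (0.596), and without that library its log2 fold change over both experiments was −1.41. Over 7 libraries on log2 CPM no library stood apart for any of the 10 genes.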

How the results depend on the processing

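Against 23 targets called over both experiments, 46 were called with no TMM scaling, 146 by DESeq2, 12 with no experiment term, 5 with a replicate block, 59 with the receptor read term, 2 with the leukocyte and Kupffer marker term, 8 with the stellate marker term, 6 with the early response term, 36 without young 2.2 and aged 2.4, and 4 with aged 1.1 and aged 1.2 summed. Leaving out 1 library gave 4 (without aged 1.1 or aged 1.2) to 29 calls. For experiment 1 alone, with 0 calls (edgeR; 914 targets at an unadjusted p under 0.05), there were 1 with no TMM scaling, 86 by DESeq2, 1 by limma-voom and 2 without young 2.2 and aged 2.4. For experiment 2 alone, with 1 call, there were 5, 53, 3 and 3 under the same alternatives, and 1 to 3 without 1 library. Of the 10 genes, 1 was called by DESeq2 (Gucy1b1) and 1 with the receptor read term (Klf2). The cause of these differences was not tested. With no TMM scaling the median of all targets shifted by 0.13 on the log2 scale in experiment 1 and by −0.13 in the difference between experiments, and by 0.05 over both experiments.

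Deviations of same-numbered libraries correlated above 0.1 in 4 of 7 pairs (−0.38 to 0.78, the highest for aged and young 2.3). In 3 of 7 the best partner was the library of the same number. These values do not settle whether the replicate numbers pair the libraries. The replicate block called none of the 10 genes.

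Of 830 values of the 10 genes under alternatives, 765 kept their direction and side of the threshold, 63 changed sign and 2 became called. Many of the 830 could hardly change, because leaving out a library of one experiment mostly left the value of the other nearly as it was. The share that kept its direction is therefore no measure of stability. Those that changed sign follow. Log2 fold changes over both experiments were 0.025 for Prkg1 with no TMM scaling (0.018 as a mean difference of log2 CPM), 0.065 with no experiment term, 0.15 with the leukocyte and Kupffer marker term and 0.088 with the early response term. For Mef2c they were 0.086 with no TMM scaling, 0.040 by limma-voom, 0.021 with no experiment term, 0.029 with the replicate block, 0.0038 with the receptor read term, 0.11 with the leukocyte and Kupffer marker term, 0.33 with the early response term and 0.025 with aged 1.1 and aged 1.2 summed. For Map2k5 the value was 0.016 with the early response term, and for Edn1 it was 0.15 by limma-voom. In experiment 1 Nos3 was at 0.12 with no TMM scaling and 0.016 by DESeq2, and Map2k5 at 0.0100 with no TMM scaling. In experiment 2 Ednrb was at −0.042 by limma-voom, and Mef2c at −0.32 without young 2.2 and aged 2.4. The difference between experiments without those libraries was 0.048 for Klf2, −0.021 for Klf4, −0.17 for Mef2c and −0.076 for Map2k5, and for Map2k5 also −0.090 with no TMM scaling, −0.0036 with no filter and −0.026 by DESeq2.

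Leaving out 1 library, log2 fold changes over both experiments ranged from −0.11 to 0.14 for Prkg1, −1.52 to 0.28 for Edn1 and −0.15 to 0.062 for Mef2c. In experiment 1 Nos3 ranged from −0.077 to 0.042. In experiment 2 Ednrb ranged from −0.98 to 0.83, Ece1 from −0.080 to 0.35 and Mef2c from −0.15 to 0.25. The difference between experiments ranged from −0.36 to 0.27 for Klf2, −0.26 to 0.56 for Klf4, −0.0049 to 0.40 for Mef2c and −0.098 to 0.11 for Map2k5. Of the 10 genes, Edn1 and Gucy1b1 had the fewest reads in their lowest library, 8 and 20. Ece1 had the fewest in its highest library, 117, and its lowest held 39.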
